A study of Mus musculus with 6 samples.

Results

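Genes of the BMP and TGF-beta pathway were described in the mouse esophagus. The 35 genes were ligands, receptors, secreted modulators, Smads and targets, and each was found by its gene name among the non-control probes of the array, which carries 28146 gene names. They were covered by 57 probes, of which 52 were tested, and 34 of the 35 genes had at least 1 tested probe. Total RNA of adult C57BL/6J mice was hybridised to 6 two-colour arrays, 3 labelled wild type (WT) and 3 labelled Pax9 knockout, with the genotype K5Cre;Pax9 loxp/loxp. In that genotype the keratin 5 promoter drives Cre, so recombination is aimed at cells of the keratin 5 lineage. Esophagus RNA was labelled with Cy5, and a universal reference RNA of 11 mouse cell lines with Cy3, on every array and without a dye swap. The labels call the samples biological replicates but do not tie them to single animals, so a p-value measures the spread between these samples, which may be technical.

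BMPs and TGF-betas are secreted dimers that bind pairs of type I and type II serine-threonine kinase receptors. BMP receptors phosphorylate Smad1 and Smad5, while TGF-beta and activin receptors phosphorylate Smad2 and Smad3. Both kinds of Smad enter the nucleus with Smad4, and the inhibitory Smads, Smad6 and Smad7, restrain the signal. In the esophagus, BMP signalling and its antagonists are known for their part in separating the foregut and in the switch of basal cells to stratified squamous differentiation.

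Values are log2 ratios of esophagus over reference, so 0 means equal signal in both channels, and a difference is the mean of the arrays labelled knockout minus that of the arrays labelled wild type. A gene was said to have risen or fallen where limma's adjusted p was under 0.05 over all tested probes. The groups were hybridised on separate slides, 1 slide and 1 scan per group per the file headers, so slide and group cannot be told apart. Cy5 was well above background at 67.3% to 77.3% of the non-control probes, and no non-control spot was saturated in Cy5. The median background-subtracted Cy5 signal ran from 56.0 to 158.8. Pax9, the paired-box transcription factor targeted by the allele, had log2 ratios of 6.28, 6.13 and 5.70 on the wild-type-labelled arrays and 6.81, 6.78 and 6.72 on the knockout-labelled ones. Its difference was 0.73 (SE 0.18, adjusted p = 0.071), and in Cy5 alone it was higher by 1.09 (adjusted p = 0.0094). The Pax9 signal was thus not lower on the arrays labelled knockout, and a probe outside the deleted part would not check the labels, so every direction given here is that between the labelled groups.

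Of the 34 pathway genes tested, 3 passed the threshold in the log ratio, against 4.83% of all 20846 genes. Bmp3 and Tgfb3 rose, where 2.84% of all genes rose, and Bmp4 fell, where 2.00% of all genes fell. The groups did not overlap for 10 of the 34, against 32.2% of all genes, a share near that background. The median difference over the 34 was -0.04 and over all genes 0.01, but that of the 34 was 0.23 with each array centred on its median, where all genes had a median of 0.11. The median size of the difference, regardless of sign, was 0.32 for the pathway genes and 0.27 for all genes. By role, 2 of 5 tested BMP ligands, 1 of 5 TGF-beta, activin and GDF ligands and none of the 5 receptors, 6 modulators, 7 Smads and 6 targets passed by limma. An unadjusted p under 0.05 was reached by 9 of the 34, against 24.7% of all genes.

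**Figure D1:**
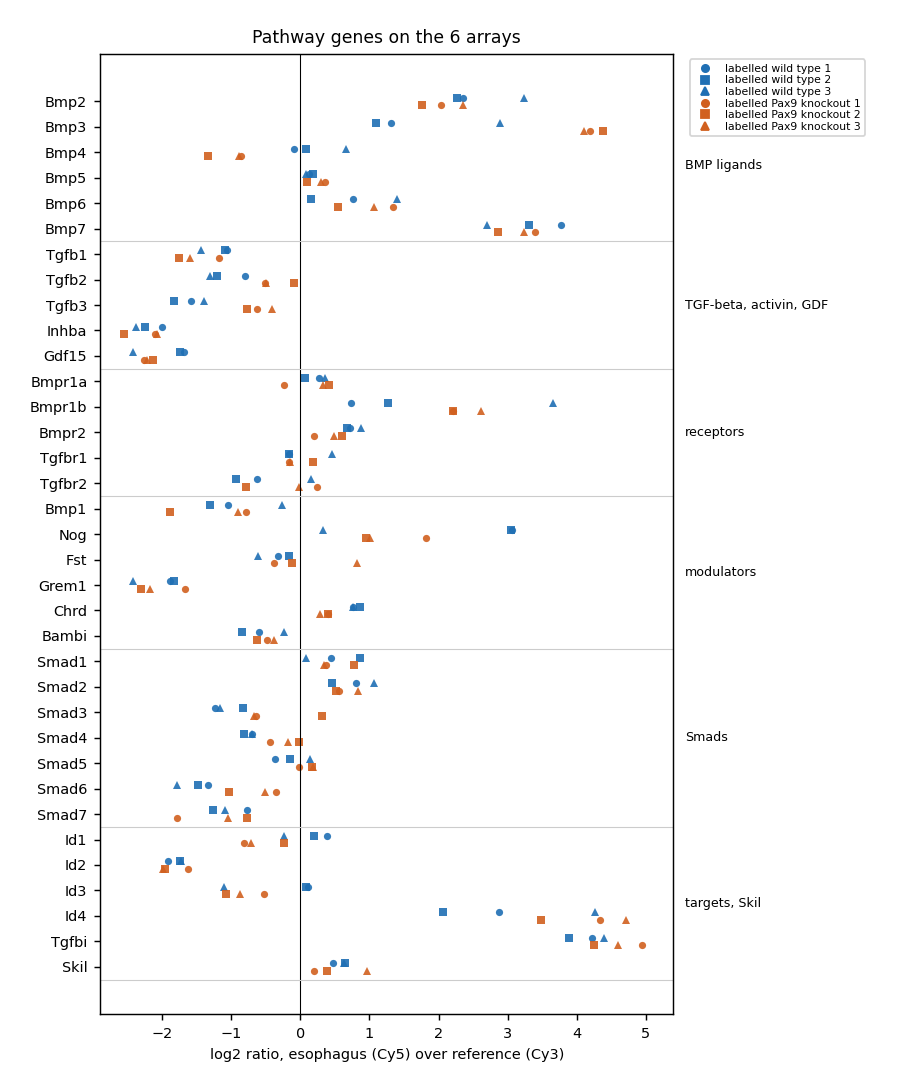
Log2 ratio of esophagus (Cy5) over reference (Cy3) for the 35 pathway genes, grouped by role, with 1 point per array, blue for arrays labelled wild type and orange for those labelled Pax9 knockout. Bmp3 and Tgfb3 have all orange points to the right of the blue ones and Bmp4 has them to the left, while Nog and Bmpr1b each have a blue point of replicate 3 far from the other blue points. Bmp5, not well above background on any array, is drawn but was not tested.

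The BMP ligands held the largest differences. Bmp3 encodes a BMP that antagonises the osteogenic BMPs. Its probe is shown because it carries the largest difference among the pathway genes; it lies at chr5:99308890-99308949 (mm9, plus strand), and in the only reading frame without an earlier stop triplet the first stop triplet, in capitals, begins at base 57.
Bmp3: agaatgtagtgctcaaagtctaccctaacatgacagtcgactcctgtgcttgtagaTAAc
The log2 ratio of Bmp3 was 1.31, 1.09 and 2.89 on the wild-type-labelled arrays and 4.19, 4.38 and 4.11 on the knockout-labelled ones. The groups were separate, and labelled wild type replicate 3 lay closest to the other group. The mean rose from 1.77 ± 0.98 (SD, n = 3) to 4.23 ± 0.14 (SD, n = 3), a difference of 2.46 (SE 0.45, 95% confidence interval 1.41 to 3.52, adjusted p = 0.034) or 5.51-fold. Before any ratio or scaling between arrays, Cy5 less background gave 56.2, 55.5 and 400.8 against 1102, 1560 and 1527 intensity units, again without overlap. The Cy3 channel, which held the same reference RNA on every array, also differed for this probe, by 0.99 (adjusted p = 0.00025), from low levels in both groups.

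The size of the Bmp3 rise depended on the processing. In the deposited log ratio its difference was 1.01 (adjusted p = 0.21), and with median centring it was 1.61 (adjusted p = 0.085). The call was also lost without any array other than labelled wild type replicate 3. The adjusted p was 0.12 without labelled wild type replicate 1 and 0.089 without replicate 2. It was 0.098, 0.074 and 0.14 without labelled knockout replicates 1, 2 and 3, and the difference stayed between 2.13 and 3.03 through all 6 omissions.

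Bmp4 encodes a ligand made in many tissues by mesenchymal cells next to an epithelium. It was the only one of the 34 tested pathway genes that fell in the log ratio, and its probe is shown for that reason. It lies at chr14:47003802-47003861 (mm9, minus strand), and nothing is marked in it.
Bmp4: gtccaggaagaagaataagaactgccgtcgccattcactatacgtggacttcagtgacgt
The probe was spotted 10 times per array, and the SD of the log2 ratio over those spots was 0.11 to 0.15 within an array. Averaged over spots, Bmp4 had log2 ratios of -0.09, 0.08 and 0.65 on the wild-type-labelled arrays and -0.85, -1.33 and -0.88 on the knockout-labelled ones. The groups did not overlap. The mean was 0.22 ± 0.39 (SD, n = 3) against -1.02 ± 0.27 (SD, n = 3), a difference of -1.24 (SE 0.24, 95% confidence interval -1.80 to -0.67, adjusted p = 0.040), which is 2.36-fold. In Cy5 alone Bmp4 fell by 1.48 (adjusted p = 0.0077), and in the Cy3 reference by 0.20 (adjusted p = 0.031). The fall in the log ratio missed the threshold without each of the 6 arrays in turn, with adjusted p of 0.089, 0.096 and 0.055 without labelled wild type replicates 1, 2 and 3 and 0.091, 0.081 and 0.14 without labelled knockout replicates 1, 2 and 3. It also missed it in the deposited log ratio (-1.18, adjusted p = 0.078) and with median centring (-1.02, adjusted p = 0.30), while its direction was the same in all of these.

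Bmp2, a close relative of Bmp4 that signals through the same receptors, had log2 ratios of 2.35, 2.26 and 3.24 on the wild-type-labelled arrays and 2.04, 1.77 and 2.35 on the knockout-labelled ones. The groups overlapped, with labelled wild type replicate 2 below labelled knockout replicate 3, and the difference of -0.56 (SE 0.29, adjusted p = 0.30) did not pass. Bmp6 and Bmp7, ligands of a second BMP subgroup, differed by 0.21 (SE 0.35, adjusted p = 0.75) and -0.10 (SE 0.29, adjusted p = 0.87), with overlapping groups. A second Bmp7 probe gave -0.48 in the ratio (adjusted p = 0.25). In Cy5 alone that probe passed at -0.81 (adjusted p = 0.040), with -0.21 in Cy3. Bmp5 had 3 probes, of which none reached the signal needed for a test, and the brightest was well above background on 0 of the 6 arrays.

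Among the TGF-beta, activin and GDF ligands, Tgfb3 rose. This gene encodes the third TGF-beta isoform, which is required for fusion of the palate. Its log2 ratios were -1.58, -1.83 and -1.40 on the wild-type-labelled arrays and -0.62, -0.77 and -0.41 on the knockout-labelled ones. The 2 groups were separate, with each at an SD of about 0.2, and the reference was brighter than the esophagus on all 6 arrays. The mean was -1.61 ± 0.21 (SD, n = 3) against -0.60 ± 0.18 (SD, n = 3), a difference of 1.00 (SE 0.18, 95% confidence interval 0.59 to 1.42, adjusted p = 0.031) or 2.01-fold. Cy5 less background, not scaled between arrays, gave 792.7, 728.7 and 2604 against 3011, 3706 and 4486 intensity units. The median over all non-control probes was 56.0, 72.6 and 158.8 against 97.5, 132.8 and 123.6, so part of that gap is array brightness. The Cy3 reference differed by 0.02 (adjusted p = 0.81) for this probe, unlike that of Bmp3.

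The Tgfb3 call was kept without labelled wild type replicate 3 (adjusted p = 0.041) and without labelled knockout replicate 2 (0.046). It was lost without labelled wild type replicates 1 (0.11) and 2 (0.094) and without labelled knockout replicates 1 (0.087) and 3 (0.14), at differences of 0.89 to 1.11 over the 6 omissions. The deposited log ratio gave 0.71 (adjusted p = 0.24) and median centring 1.40 (adjusted p = 0.13).

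Tgfb2, the second isoform, moved the same way without passing. It had log2 ratios of -0.80, -1.20 and -1.31 against -0.51, -0.10 and -0.50, which did not overlap, and a difference of 0.74 (SE 0.20, adjusted p = 0.084). Tgfb1, the isoform best known from immune cells and wound repair, had a difference of -0.31 (SE 0.20, 95% confidence interval -0.79 to 0.16, adjusted p = 0.39). Inhba, the activin A subunit, differed by -0.03 (SE 0.19, adjusted p = 0.95). Gdf15, a stress-induced member of the family, differed by -0.25 (SE 0.22, adjusted p = 0.53). For Inhba and Gdf15 the groups overlapped, and all 6 arrays had less signal in the esophagus than in the reference.

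**Figure D2:**
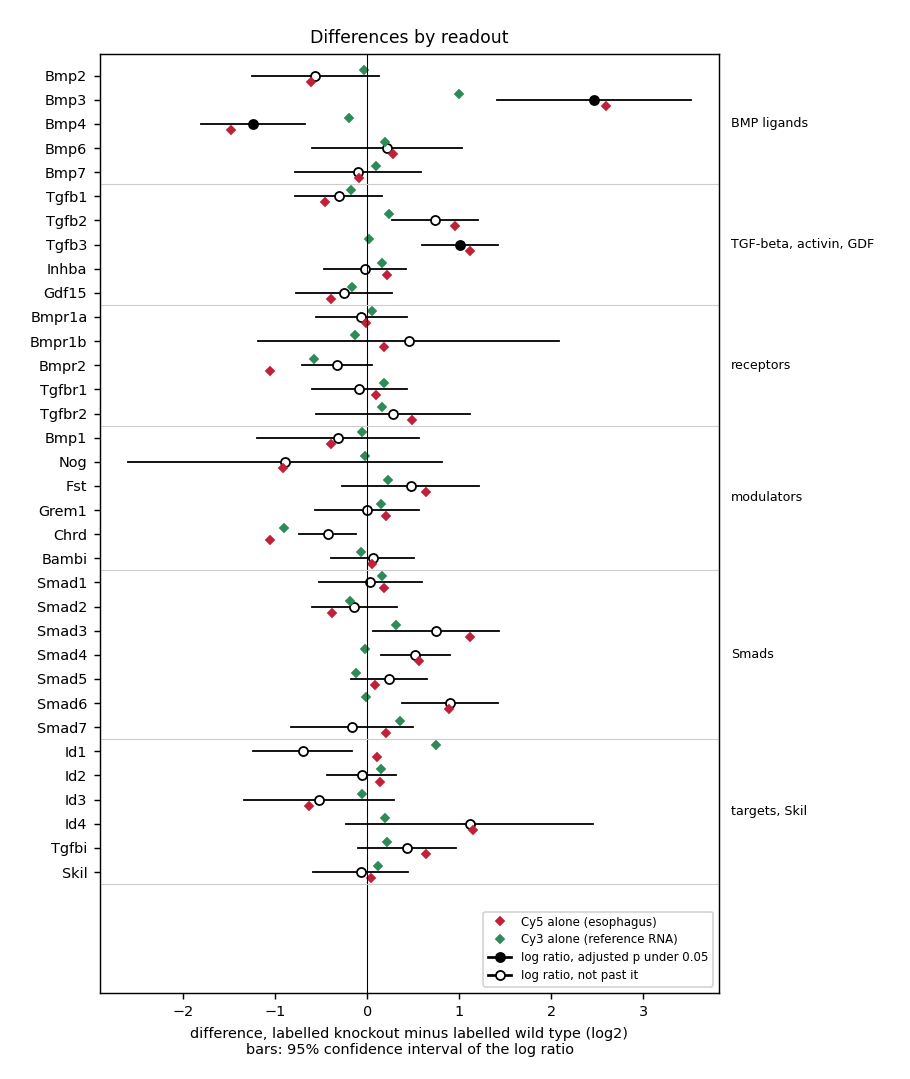
Difference in log2 units, knockout-labelled minus wild-type-labelled arrays, for the 34 tested pathway genes. Circles with bars are the log ratio with its 95% confidence interval, filled for Bmp3, Bmp4 and Tgfb3, whose adjusted p was under 0.05. Diamonds are Cy5 alone (red, esophagus) and Cy3 alone (green, reference), and for Chrd and Bmpr2 both diamonds lie below 0.

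None of the 5 receptors passed in the log ratio. Bmpr2, the type II BMP receptor, had log2 ratios of 0.71, 0.68 and 0.87 against 0.19, 0.60 and 0.49, which did not overlap, and a difference of -0.33 (SE 0.16, adjusted p = 0.28). Bmpr1a, a type I BMP receptor, differed by -0.06 (SE 0.21, 95% confidence interval -0.55 to 0.43). The TGF-beta receptors Tgfbr1 and Tgfbr2 differed by -0.09 (SE 0.22, adjusted p = 0.85) and 0.28 (SE 0.36, adjusted p = 0.68). Bmpr1b, the other type I BMP receptor of the list, had log2 ratios of 0.73, 1.26 and 3.66 against 2.20, 2.20 and 2.61. Labelled wild type replicate 3 was thus the highest of the 6 arrays and the other two of its group the lowest, and the interval of the difference ran from -1.19 to 2.09. The difference was 0.45 (SE 0.69, adjusted p = 0.74) with all arrays, 1.34 (adjusted p = 0.045) without labelled wild type replicate 3 and -0.13 without labelled wild type replicate 1. Cy3 less background of Bmpr1b was only 0.3 to 9.6 intensity units, so its ratios rest on very little reference signal. The deposited log ratio gave a difference of 1.76 (adjusted p = 0.43).

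Secreted modulators bind ligands or release them, and none of the 6 genes in this group passed in the log ratio with all arrays. Nog encodes noggin, which holds BMP2 and BMP4 away from their receptors and is needed to form the esophagus. Its log2 ratios were 3.07, 3.05 and 0.33 on the wild-type-labelled arrays and 1.81, 0.95 and 1.00 on the knockout-labelled ones. Labelled wild type replicate 3 again stood apart from its group, this time as the lowest array, and the difference was -0.90 (SE 0.72, adjusted p = 0.49). Without that array it was -1.80 (adjusted p = 0.040). Chrd, chordin, another BMP antagonist, had 0.76, 0.86 and 0.76 against 0.40, 0.40 and 0.28, with a difference of -0.43 (SE 0.13, adjusted p = 0.11) and no overlap. Fst, the activin antagonist follistatin, differed by 0.47 (SE 0.32, adjusted p = 0.41), with labelled knockout replicate 3 highest at 0.82. Grem1, gremlin, differed by -0.01 (SE 0.24), Bambi, a pseudoreceptor, by 0.06 (SE 0.19), and Bmp1, a protease that cleaves chordin and procollagens, by -0.32 (SE 0.37), with adjusted p of 0.99, 0.88 and 0.65.

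Of the 7 Smads, 5 had a difference above 0 and none passed in the fit without the replicate block. Smad6, the inhibitory Smad of the BMP branch and itself a BMP target, came nearest. Its probe at chr9:63801378-63801437 (mm9, minus strand) is shown because its call changed with the fit.
Smad6: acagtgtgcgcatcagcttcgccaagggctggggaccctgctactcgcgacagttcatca
The log2 ratios of Smad6 were -1.34, -1.49 and -1.79 on the wild-type-labelled arrays and -0.36, -1.04 and -0.51 on the knockout-labelled ones. The groups did not overlap, and the difference was 0.90 (SE 0.22, 95% confidence interval 0.38 to 1.42, adjusted p = 0.068). With the replicate number as a block, Smad6 passed (adjusted p = 0.047), as did Id4 (0.043) beside Bmp3, Bmp4 and Tgfb3, which made 5 of 34 pathway genes against 8.20% of all genes. The second probe of Id4 did not pass with the block (0.44, adjusted p = 0.37). Smad6 also passed without labelled knockout replicate 2 (difference 1.10, adjusted p = 0.046) and with array weights (0.91, adjusted p = 0.030).

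Smad4, the partner shared by both branches, had -0.70, -0.81 and -0.70 against -0.44, -0.02 and -0.18, a difference of 0.52 (SE 0.16, adjusted p = 0.11) that its other probe gave as well (0.52). Smad3, of the TGF-beta branch, had -1.24, -0.84 and -1.16 against -0.65, 0.31 and -0.68, with labelled knockout replicate 2 highest, and a difference of 0.74 (SE 0.29, adjusted p = 0.18). Its second probe gave 0.09 (adjusted p = 0.80), so the probes of Smad3 disagreed. Smad1 and Smad5 of the BMP branch differed by 0.03 (SE 0.24) and 0.24 (SE 0.17), Smad2 by -0.14 (SE 0.20), and Smad7, the general inhibitor, by -0.16 (SE 0.28), with overlapping groups in all of these.

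The Id genes encode inhibitors of basic helix-loop-helix factors and are direct targets of BMP signalling in many cell types. No Id gene passed in the log ratio with all 6 arrays in the fit without the replicate block or array weights. Id1 had log2 ratios of 0.38, 0.19 and -0.24 against -0.82, -0.24 and -0.72, with a difference of -0.70 (SE 0.23, adjusted p = 0.13), and the nearest arrays of the groups were both at -0.24. A second Id1 probe, at chr2:152563036-152563095, shares 50 of its 60 bases with the first at chr2:152563046-152563105 and gave -1.00 (adjusted p = 0.057, and 0.039 with the replicate block). Id3 differed by -0.52 (SE 0.35, adjusted p = 0.40) and Id2 by -0.06 (SE 0.16, adjusted p = 0.85). Id4 went the other way by 1.11 (SE 0.57, adjusted p = 0.29), from 2.87, 2.07 and 4.27 to 4.34, 3.49 and 4.72. Its second probe gave 0.44 in the ratio (adjusted p = 0.68) and -0.14 in Cy5 alone, so the Id4 probes disagreed in size and, in Cy5, in sign. On the arrays labelled wild type, Id3 had its lowest and Id4 its highest value on replicate 3, and the 2 groups overlapped for both genes. Tgfbi, a matrix protein named for its induction by TGF-beta, differed by 0.43 (SE 0.23, adjusted p = 0.30), and Skil, a repressor of Smad activity, by -0.07 (SE 0.22, adjusted p = 0.88). A second Skil probe gave -0.45 in the ratio (adjusted p = 0.18), without overlap of the groups. In Cy5 alone that probe passed at -0.82 (adjusted p = 0.020), with -0.57 in Cy3.

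**Figure D3:**
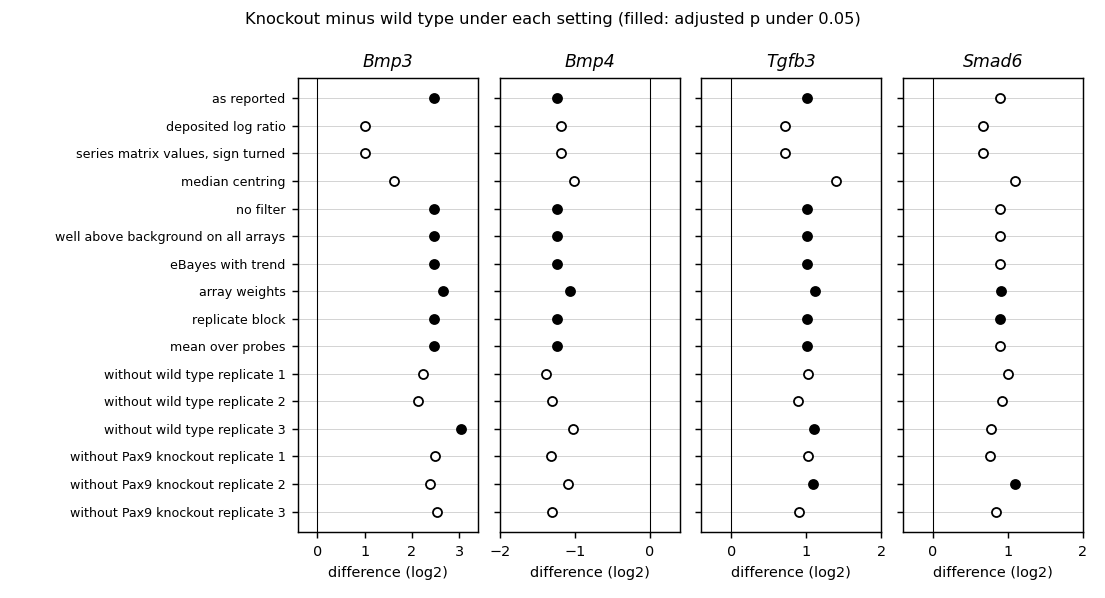
Difference in the log ratio, knockout-labelled minus wild-type-labelled arrays, for Bmp3, Bmp4, Tgfb3 and Smad6 under each way of processing and without each array, filled where the adjusted p was under 0.05. All points of a gene lie on the same side of 0. Bmp4 has no filled point without any of the 6 arrays, Tgfb3 has 2 and Bmp3 has 1.

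The Cy5 channel was also tested alone, after quantile normalization between arrays, since the ratio depends on the reference. It called 9 of the 34 pathway genes, near the 28.8% of all genes called that way. Of these, 5 rose (Bmp3, Tgfb2, Tgfb3, Smad3 and Smad6), against 14.3% of all genes, and 4 fell (Bmp2, Bmp4, Bmpr2 and Chrd), against 14.5%. The 3 genes called in the log ratio had the same direction here. In the Cy3 channel alone, which held the same RNA on every array, 14 of the 34 were called, against 53.9% of all genes. The part of this difference between the arrays in the Cy5 calls was not tested. The intensities as processed by the scanner software, scaled to the 75th percentile, called 3 of the 34 in Cy5 (Bmp3, Bmp4 and Chrd), against 13.9% of all genes.

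For Chrd and the brightest Bmpr2 probe both channels were lower on the knockout-labelled arrays. Normalized log2 Cy5 of Chrd was 8.49, 8.55 and 8.45 on the wild-type-labelled arrays and 7.46, 7.50 and 7.35 on the knockout-labelled ones, a fall of 1.06 (-1.06, adjusted p = 0.0048). Its Cy3 was 8.93, 8.87 and 8.90 against 7.96, 8.05 and 7.97, a difference of -0.91 (adjusted p = 2.6e-05). Bmpr2 differed by -1.05 in Cy5 (adjusted p = 0.0082) and by -0.58 in Cy3 (adjusted p = 0.00020), from Cy5 values of 12.86, 12.83 and 12.90 against 11.52, 12.02 and 11.89. The other two Bmpr2 probes gave -0.75 (adjusted p = 0.024) and -0.23 (adjusted p = 0.59) in Cy5 and -0.63 and 0.11 in Cy3, so the fall in Cy5 did not hold for every probe of the gene. Most of the Cy5 difference of Chrd was thus also present in the reference channel, and the processed intensities gave Bmpr2 a Cy5 difference of -0.26 (adjusted p = 0.53).

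In Smad6 and Tgfb3 the Cy5 difference came with almost none in Cy3, and in Bmp2 too, but from a very low Cy3 signal. Cy5 of Smad6 was 8.36, 8.22 and 8.14 against 9.47, 8.74 and 9.19, a difference of 0.89 (adjusted p = 0.024), with -0.01 in Cy3. Cy5 of Bmp2 was 8.29, 8.11 and 8.47 against 7.77, 7.38 and 7.87, a difference of -0.62 (adjusted p = 0.048), with -0.04 in Cy3. Its Cy3 less background was 8.0 to 17.4 intensity units, so low that a fall in the reference could hardly show. The call of Bmp2 was lost without each of the 6 arrays, at an adjusted p of 0.068 to 0.117. That of Smad6 was lost without any array other than labelled knockout replicate 2, at 0.056 to 0.082, and the processed intensities gave it 0.25 (adjusted p = 0.64) and Tgfb3 0.51 (adjusted p = 0.31).

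Cy5 of Tgfb2 was 8.90, 8.38 and 8.46 against 9.35, 9.71 and 9.52, a difference of 0.95 (adjusted p = 0.015) with 0.23 in Cy3. It missed the threshold without labelled knockout replicate 3 (0.058) and in the processed intensities (0.056). Cy5 of Smad3 was 9.41, 9.85 and 9.53 against 10.49, 11.35 and 10.31, a difference of 1.12 (adjusted p = 0.031) with 0.31 in Cy3. It missed it without labelled wild type replicates 1 (0.097), 2 (0.054) and 3 (0.076) and labelled knockout replicate 1 (0.058), and the processed intensities gave 0.55 (adjusted p = 0.44). The second Smad3 probe gave -0.12 in Cy5 (adjusted p = 0.60) and -0.33 in Cy3, so the Cy5 rise did not hold for both probes.

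Where a gene had several probes, they differed less among themselves in the ratio than in Cy5. Over the 15 genes with more than 1 tested probe, the median distance between the lowest and highest difference of a gene was 0.24 in the log ratio and 0.61 in Cy5 alone. It was smaller in the ratio for 14 of the 15, with Bmp6 as the exception. The Id1 probes, which overlap by 50 bases, gave 0.10 and -1.66 in Cy5 alone and 0.75 and -0.49 in Cy3 alone, but -0.70 and -1.00 in the ratio.

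**Figure D4:**
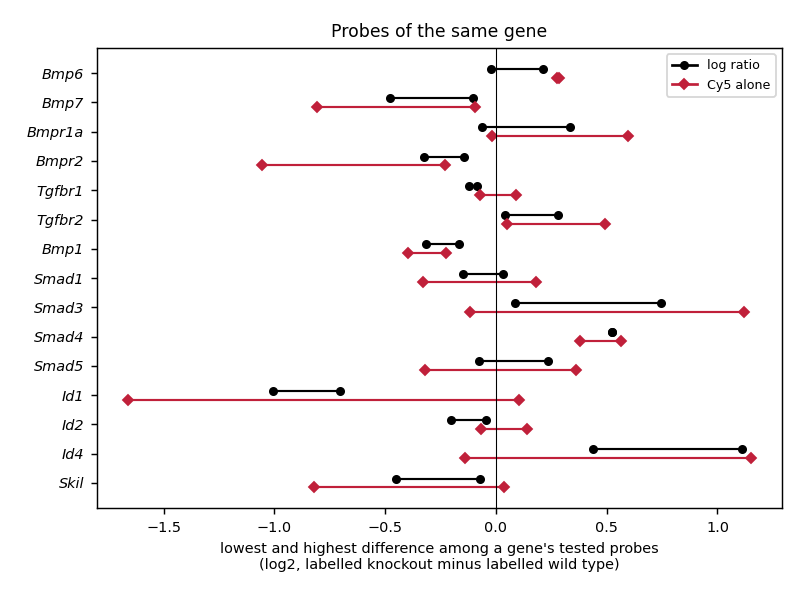
Lowest and highest difference (log2, knockout-labelled minus wild-type-labelled arrays) among the tested probes of each of the 15 pathway genes with several, in the log ratio (black) and in Cy5 alone (red). The red span is longer for 14 genes and longest for Id1, from -1.66 to 0.10, while Bmp6 has the shorter red span.

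A wider list of 86 pathway genes, of which 85 were on the array and 74 were tested, had 7 past the threshold, against the same 4.83%. Its median difference was 0.05, and the groups did not overlap for 24 of the 74, near the 32.2% of all genes. Among receptors, Acvr2a, an activin type II receptor, rose by 1.09 (SE 0.20, adjusted p = 0.033), Acvr1b, the activin type I receptor, fell by 0.70 (SE 0.14, adjusted p = 0.045), and Tgfbr3, betaglycan, the TGF-beta co-receptor, fell by 1.12 (SE 0.19, adjusted p = 0.029). The ligand Gdf5, known from joint formation, fell by 1.66 (SE 0.32, adjusted p = 0.039), and the target Dlx5, a homeobox gene, fell by 1.15 (SE 0.21, adjusted p = 0.036). The antagonist Dand5 rose by 1.48 (SE 0.21, adjusted p = 0.020), with a Cy3 difference of 1.08, and Tgif2, a repressor of Smad-driven transcription, rose by 1.13 (SE 0.20, adjusted p = 0.031). The rise of Tgif2 took it from -2.76, -2.66 and -2.71 to -1.91, -1.61 and -1.22, and that of Acvr2a from 0.27, 0.29 and 0.74 to 1.36, 1.43 and 1.77. Betaglycan went from 0.69, 0.86 and 0.33 to -0.29, -0.50 and -0.69. With the mean over a gene's probes in place of its brightest one, Acvr2a had 0.49 (adjusted p = 0.33) and Acvr1b -0.44 (adjusted p = 0.12), so both calls rest on the probe used.

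These 7 calls were also close to the threshold. Without 1 array at a time, Gdf5 (adjusted p 0.0502 to 0.16), Acvr1b (0.074 to 0.18) and Dlx5 (0.052 to 0.16) lost the call for every array left out. Acvr2a (0.033 to 0.15) and Tgfbr3 (0.031 to 0.14) kept it only without labelled wild type replicate 3, Tgif2 (0.047 to 0.12) only without labelled knockout replicate 1, and Dand5 (0.026 to 0.10) without either labelled wild type replicate 3 or labelled knockout replicate 2. In the deposited log ratio 1 of the 74 passed (Dlx5), and with the replicate block Acvr1b missed it (adjusted p = 0.054).

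Markers of the cell types that can make or receive these ligands were read on the same arrays. The source is labelled esophageal epithelium, and the extraction protocol speaks of esophageal tissue. The 8 suprabasal and 8 basal epithelial markers were all detected, with mean log2 ratios of 5.84 to 6.64 and 4.01 to 4.55, and so were all 10 skeletal muscle, 8 smooth muscle, 8 fibroblast, 8 endothelial and 8 immune markers. The summed Cy5 signal of the skeletal muscle list was 53448, 552398 and 51336 on the wild-type-labelled arrays and 194441, 1466390 and 209980 on the knockout-labelled ones. The sum of the list was higher on the knockout array of each replicate number, but the groups overlapped. In the log ratio 9 of its 10 genes had a difference above 0, with a median of 1.06. The threshold was passed by 1 of 10, or 3 of 10 with the replicate block, against 4.83% and 8.20% of all genes. The gene that passed without the block was Myh2. Its log ratio was lowest on replicate 2 in both groups, where the muscle sum was highest. Summed fibroblast signal was 249775, 134864 and 365327 against 404514, 160565 and 460723, and endothelial signal 5618, 5893 and 6781 against 8278, 6492 and 7712. Both sums were higher on the knockout array of each replicate number, and in both the groups overlapped. In the log ratio 0 of 8 passed in each list. With the block 1 of 8 fibroblast genes (Mfap5) and 2 of 8 endothelial genes (Kdr and Cldn5) passed, against the same 8.20%. The immune sum was 61203, 26944 and 100283 against 37168, 25684 and 51331, lower on the knockout array of each number but with overlapping groups. Cd207, the marker of Langerhans cells, was the 1 immune gene of 8 that fell, and with the block Ptprc passed as well. The shares of all genes beside these counts are the same 4.83% and 8.20%.

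The sums of the other lists moved less evenly over the replicate numbers, apart from that of glands. The summed signal of the submucosal gland and simple epithelium list was 14156, 11689 and 7439 against 7944, 7517 and 7135. It was lower on the knockout array of each number, but the groups overlapped. The median difference of the list was -0.59, with 3 of its 5 tested genes below 0 and 2 above. The threshold in the log ratio was passed by 1 of the 5, against 4.83% of all genes. This was Aqp5, a water channel of gland cells, which fell by 2.71 (adjusted p = 0.0075). Summed smooth muscle signal was 80224, 146927 and 302237 against 284817, 104029 and 239756, without one direction over the numbers. In the log ratio 7 of the 8 smooth muscle genes had a difference above 0, and 0 of 8 passed. The basal sum was 617663, 659763 and 797915 against 730041, 788721 and 743489, and 1 of 8 basal genes passed, Lamb3, a laminin chain, which rose by 0.92 (adjusted p = 0.034). In Cy5 alone 5 of the 8 basal genes passed, 2 higher and 3 lower, against 28.8% of all genes. None of the 8 suprabasal genes passed in the log ratio, with or without the block, and 7 of the 8 had a difference below 0. Bpifa1, a gland marker, was not well above background, and no other marker of the 8 lists went untested. The part of these cell types in the pathway differences was not tested, and in bulk RNA fewer cells of a type and less RNA per cell cannot be told apart. Mstn, the muscle-made ligand myostatin, had 0.35, 2.37 and 0.60 against 1.24, 5.59 and 2.56, with replicate 2 highest in both groups as in the muscle sum, and a difference of 2.02 (adjusted p = 0.31, and 0.035 with the replicate block).

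**Figure D5:**
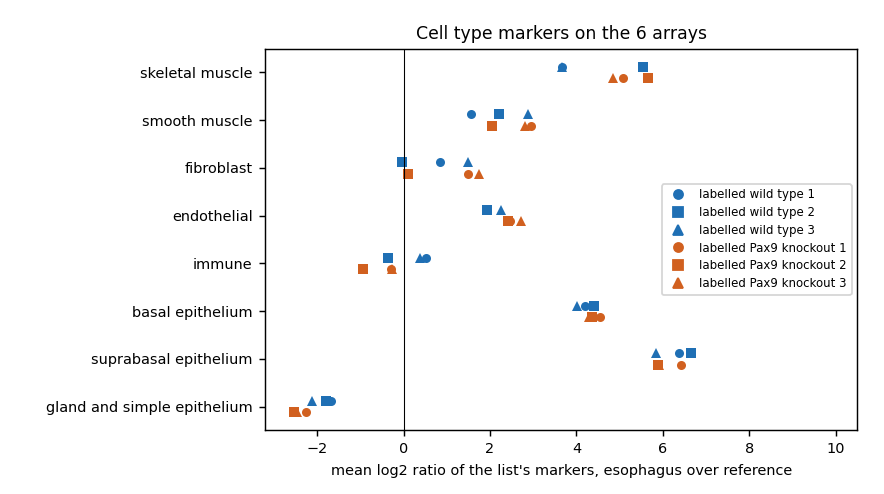
Mean log2 ratio of esophagus over reference for 8 lists of cell type markers, with 1 point per array, blue for arrays labelled wild type and orange for those labelled Pax9 knockout. In the skeletal muscle row the wild type points of replicates 1 and 3 lie at 3.67, and all other points of that row lie between 4.85 and 5.64.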

How the data were processed

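The scanner files deposited by the authors hold linear intensity values of both dyes for 45018 spots per array (Agilent design 014868, mouse build mm9) and a log10 ratio of Cy5 over Cy3, made with Feature Extraction. Its version is 10.7.3.1 per the file headers but 9.1 per the submitters' processing notes. The deposited series matrix holds log2 values. Set against the scanner ratios (r of -0.993 to -0.996) they are Cy3 over Cy5, so their sign was turned. Their column medians ran from -0.024 to 0.013, and whether the authors centred them is unknown.

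From the intensities, background was corrected with normexp (offset 50) and each array was normalized by loess. Control spots and spots called outliers (55 to 164 per array) were left out, and spots of a probe were averaged. A probe was tested (30505 of 41174) if 1 or both groups had Cy5 well above background on each of their 3 arrays, and a gene was represented by its brightest tested probe (20846 genes). Groups were compared in R 4.3.3 with the lmFit and eBayes functions of limma 3.58.1 (two-sided, no covariate), with Benjamini-Hochberg adjustment over tested probes. Errors of differences are moderated SEs. The number of arrays limits the precision, and with 3 arrays a group the smallest exact permutation p would be 0.1. The fit was tested on simulated data. Deviations of same-numbered arrays correlated at 0.14, 0.49 and 0.32. The shared numbers in the labels were taken as pairs in the replicate block, an alternative, and in reading the marker sums, not in the main fit. Arrays of unlike number correlated at -0.47 to 0.16, and 2 of those 6 values were above 0 (0.16 for labelled wild type 1 with labelled knockout 3, and 0.10 for 3 with 1). Alternatives were the deposited values, median centring, other filters, an intensity trend, array weights, the replicate block, the mean over probes and leaving out each array.

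The 35 genes, the wider list and the markers were chosen with earlier results of these data known. Genes whose brightest probe passed in the log ratio or in Cy5 alone are given on every array. Other genes are given by difference, and genes of the wider list where they passed. Mstn, Smad4 and the genes set by labelled wild type replicate 3 were singled out after their values were seen. Sequences are those of the probes in the files.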

Additional observations from a re-analysis of the deposited data

How the results depend on the processing

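No pathway gene whose brightest probe passed the threshold in the log ratio or in Cy5 alone, and none of the 7 of the wider list, changed sign in the log ratio under any alternative. Of the 34 genes, 15 others did in 1 or more of the 15 alternatives, among them Bmp6 (0.21, lowest -0.13), Smad2 (-0.14, highest 0.15), Inhba (-0.03, highest 0.27) and Bmpr1b (0.45, and -0.13 without labelled wild type replicate 1). The filters, the intensity trend and the replicate block leave each difference unchanged, so they could not turn a sign. The series matrix repeated the deposited log ratio, and the mean over probes changed nothing for genes with 1 tested probe. The 3 pathway genes past the threshold in the log ratio became 0 in the deposited log ratio, 0 in the series matrix and 0 with median centring, and 5 with array weights (adding Smad6 and Id1) and 5 with the replicate block that follows the pairing of the numbers. Leaving out 1 array at a time gave 0 to 4. The count was 3 without a filter, with a stricter filter, with an intensity trend and with the mean over probes. In Cy5 alone, the 9 genes became 3 with the processed signal at the 75th percentile, 10 with the replicate block and 6 to 10 without 1 array. The 7 genes of the wider list became 1 in the deposited log ratio, 1 in the series matrix, 1 with median centring, 11 with array weights, 9 with the replicate block and 0 to 6 without 1 array. Over all genes, 1007 passed in the log ratio, 570 in the deposited log ratio and 120 with median centring, of which 58.7%, 53.0% and 63.3% were higher on the arrays labelled knockout. The cause of these changes was not tested. The replicate block changed no other call among the named pathway genes than those of Smad6, Id4, Acvr1b and Mstn and of the second Id1 probe, and added Bgn and Pmepa1 in the wider list. Low signal limits Bmp3 on the arrays labelled wild type and leaves Bmp5 without a measurement. Very low reference signal also limits the ratios of Bmpr1b and Bmp2, with Cy3 less background of 0.3 to 9.6 and 8.0 to 17.4 intensity units.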
